A study of Mus musculus with 4 samples.

Results

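The S100 genes encode small calcium-binding proteins, and 10 of them were followed here in mouse brain after permanent middle cerebral artery occlusion (PMCAO), a model of ischemic stroke. The genes are S100a1, S100a4, S100a6, S100a8, S100a9, S100a10, S100a11, S100a13, S100a16 and S100b. They were taken by name from the array annotation, as every probe that is not a control and carries the name of 1 of these genes. Each gene had 1 such probe, so the set holds 10 of the 27670 gene names on the array and 10 of the 19134 genes that were tested. Other S100 genes on the array were kept as a comparison list.

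RNA came from brains of male C57BL/6J mice, 8 to 12 weeks old, in groups of 3. In the PMCAO arm a nylon filament was passed through the common carotid artery into the middle cerebral artery. In the sham arm the carotid vessels were exposed under isoflurane and the wound was closed. Mice of both arms were then injected with 0.9% saline in a cerebral ventricle and killed 6 h or 24 h after the injection. Each time was covered by 2 two-colour arrays, each carrying PMCAO RNA in one dye and sham RNA in the other. On sample 1 of each time PMCAO was labelled with Cy5, and on sample 2 with Cy3. The labels do not say whether sample 1 and sample 2 hold separate RNA or how the RNA of the 3 mice was combined. The p-values therefore rest on the spread from array to array alone, and that spread may be technical. According to the design text the contralateral hemisphere was hybridised, while the sample labels give the tissue as brain.

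An S100 protein is usually a dimer whose subunits each carry a pair of EF-hand loops, the helix-loop-helix unit that holds a calcium ion. Calcium binding opens a surface that grips target proteins such as annexins, myosin or kinases. Some members also leave the cell and act on receptors, above all S100A8 and S100A9, which are stored as a heterodimer in neutrophils and monocytes and signal through TLR4 and RAGE. In brain, S100B is a classical astrocyte protein, and S100A10 is the partner of annexin A2 at the cell membrane. Most S100a genes lie side by side in a cluster on mouse chromosome 3, and S100b lies alone on chromosome 10.

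The probes of the 10 genes were well above background in both channels of all 4 arrays, and none of their spots was flagged as an outlier or saturated. In the coordinates of mouse build mm7 given by the files, the probes of the cluster ran from S100a1 (chr3:90642309-90642368) to S100a9 (chr3:90822865-90822924). Those of S100a11 (chr3:93627811-93627870) and S100a10 (chr3:93666231-93666290) lay further along the same chromosome, and that of S100b lay on chr10:75915615-75915674. The S100a13 probe has 60 bases but its coordinates span 8007 bases of the genome. The longest run of letters that a member's probe shared with any other probe on the array was 12 to 15 bases for 9 of the 10 genes. The S100a11 probe is the exception, with a run of 46 bases in common with the probe of a predicted S100a11-like gene, so these data cannot tell the 2 transcripts apart. To show what separates such closely related transcripts on the array, the probes of S100a6, S100b and S100a8 are given below, placed against each other without gaps. All 3 fall in the part of the coding sequence that encodes the calcium-binding loop near the carboxyl end. Capitals mark the 18 positions, of 39 covered by all 3 probes (46.2%), at which the letters are identical.
S100a6: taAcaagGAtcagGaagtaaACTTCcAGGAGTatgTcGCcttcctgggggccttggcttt
S100b: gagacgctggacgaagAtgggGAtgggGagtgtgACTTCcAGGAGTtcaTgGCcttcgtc
S100a8: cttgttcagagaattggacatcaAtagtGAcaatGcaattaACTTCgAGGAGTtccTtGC
The shared letters come in short blocks, the longest being 6 bases.

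At 6 h, 2 of the 10 genes, S100a8 and S100a9, were higher in PMCAO than in sham, and none was lower. At 24 h, 7 of the 10 were higher: S100a4, S100a6, S100a8, S100a9, S100a10, S100a11 and S100a13. None was lower at 24 h (0 also at an unadjusted limma p under 0.05), and S100a1, S100a16 and S100b did not pass. A gene was called when its limma p, adjusted over all genes tested by the Benjamini-Hochberg method, was under 0.05. Over all genes, 0.815% were called higher and 0.0366% lower at 6 h, and 7.84% higher and 4.52% lower at 24 h (1500 and 864 genes, or 1242 and 1158 with the scanner software's processed signals). The median log2 ratio of the 10 genes was 0.11 at 6 h and 0.98 at 24 h, against -0.01 and 0.00 over all genes tested. All 10 estimates were above 0 at 24 h. With median centring in place of the intensity-dependent loess normalisation, no member passed at 6 h (2 at an unadjusted limma p under 0.05), and only S100a8 and S100a9 passed at 24 h.

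**Figure D1:**
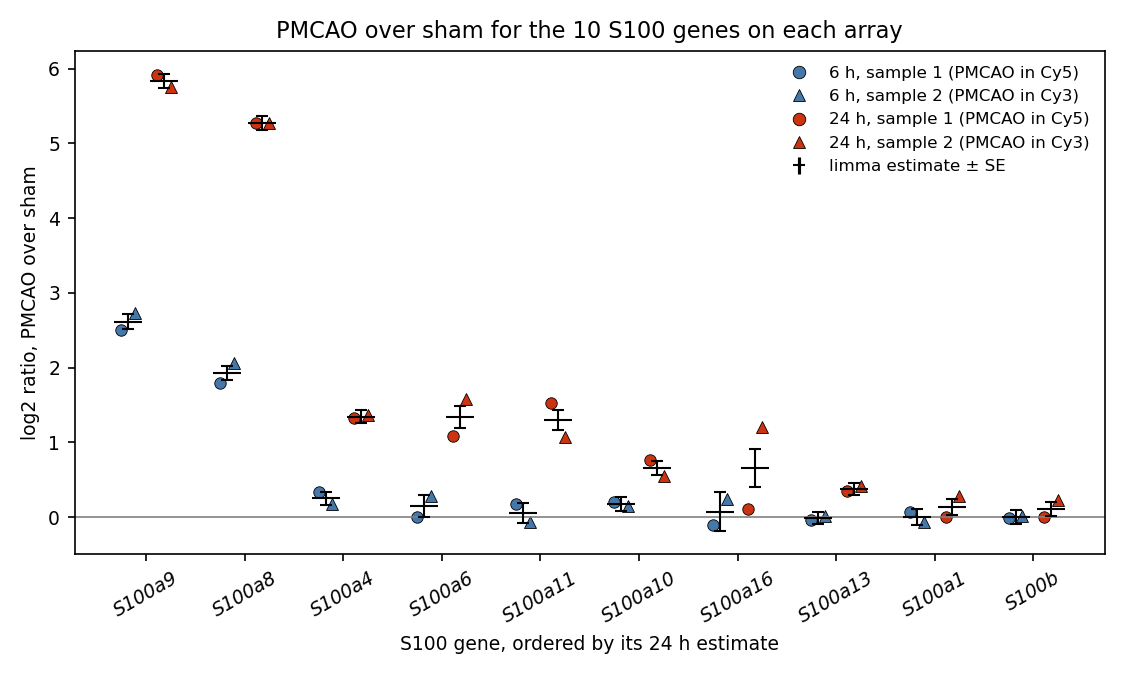
Log2 ratio of PMCAO over sham (vertical axis) for each of the 10 S100 genes (horizontal axis, ordered by the 24 h estimate). Points are single arrays, with circles for sample 1 and triangles for sample 2 in blue at 6 h and red at 24 h, and black marks are the limma estimate ± SE. S100a9 and S100a8 stand apart at both times, and the 24 h points of S100a16 lie apart, at 0.10 and 1.21.

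S100a9 encodes the calprotectin subunit with the long tail that binds metal ions and carries much of the heterodimer's signalling. Its log2 ratio was 2.50 and 2.73 on the 2 arrays of 6 h, and 5.91 and 5.76 on those of 24 h. All 4 values were far above 0, and both values of 24 h lay above both of 6 h. The estimates were 2.61 ± 0.10 at 6 h (SE, n = 2 arrays), or 6.12-fold, with adjusted p = 0.00385, and 5.84 ± 0.10 at 24 h, or 57.1-fold, with adjusted p = 8.66e-05. S100a9 ranked 3 of all genes by its ratio at 6 h and 1 at 24 h.

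S100a8 encodes the other calprotectin subunit, which needs its partner to be stable. Its log2 ratio was 1.79 and 2.06 at 6 h and 5.27 and 5.28 at 24 h. The ratio was thus nearly the same on both arrays of 24 h, and again every value of 24 h exceeded every value of 6 h. The estimates were 1.92 ± 0.10 at 6 h, or 3.79-fold, with adjusted p = 0.00437, and 5.27 ± 0.10 at 24 h, or 38.7-fold, with adjusted p = 8.66e-05. S100a8 ranked 17 of all genes at 6 h and 2 at 24 h. Its sham signal was low at 24 h, and with the scanner software's processed signals, which have no added offset, the log2 ratio was 2.54 at 6 h and 6.07 at 24 h.

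S100a8 and S100a9 are the only members whose ratio passed at both times, and their start regions are shown because the pair moved together. The windows are the 250 bases before the RefSeq start of each gene in build GRCm38.p6. That of S100a8 is chr3:90668821-90669070 on the plus strand, and that of S100a9 is chr3:90695722-90695971 on the minus strand. Capitals mark matches to the C/EBP motif (TTNNGNAA) and to the TATA box (TATAAA), searched on both strands.
S100a8: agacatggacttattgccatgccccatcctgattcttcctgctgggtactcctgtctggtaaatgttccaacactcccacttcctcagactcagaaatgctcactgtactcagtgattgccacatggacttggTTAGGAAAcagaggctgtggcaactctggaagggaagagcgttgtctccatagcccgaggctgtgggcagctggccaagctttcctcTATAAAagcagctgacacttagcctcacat
S100a9: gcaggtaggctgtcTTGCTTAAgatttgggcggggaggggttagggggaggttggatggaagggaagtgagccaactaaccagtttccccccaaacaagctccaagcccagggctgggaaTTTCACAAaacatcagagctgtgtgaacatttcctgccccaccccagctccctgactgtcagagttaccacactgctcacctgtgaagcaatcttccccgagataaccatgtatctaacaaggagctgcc
The S100a8 window held 1 C/EBP match, at 117 to 110 bases before the start, and 1 TATA box, at 30 to 25 bases before it. The S100a9 window held 2 C/EBP matches, at 236 to 229 and 130 to 123 bases before the start, and no TATA box. The C/EBP motif is loose, since 36.8% of the 32851 windows in the table hold it, while 12.4% hold the TATA box.

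Windows were listed for 9 of the 10 members, all but S100a10. Among these 9, the C/EBP motif, in 36.8% of all windows, occurred in 2, S100a8 and S100a9. The TATA box, in 12.4% of all windows, occurred in S100a4 (31 to 26 bases before the start) and S100a8. The AP-1 motif (TGANTCA), present in 6.75% of all windows, occurred 2 times in S100a11 and 1 time in 1 of the 2 windows of S100a16. The STAT motif (TTCNNNGAA), in 7.02% of all windows, and the NF-kB motif (GGNNNTTCC), in 15.7%, occurred in none of them. The motifs do not overlap in these windows. A match to such letters is a description of the sequence, and no binding was measured.

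S100a4, also called metastasin, binds non-muscle myosin and is found in motile cells, fibroblasts and leukocytes. On the log2 scale the ratio was 0.33 and 0.17 at 6 h and 1.32 and 1.37 at 24 h. The arrays of 24 h agreed closely, and both lay above those of 6 h. At 24 h S100a4 was 2.54-fold higher in PMCAO (log2 1.34 ± 0.09, adjusted p = 0.000945). The 6 h estimate of 0.25 ± 0.09 did not pass (adjusted p = 0.458).

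S100a6, calcyclin, binds annexins and CacyBP and is made by proliferating and reactive cells. Its 6 h arrays gave log2 ratios of 0.00 and 0.29, and its 24 h arrays 1.09 and 1.58. The arrays of 24 h differed by 0.49 but both exceeded those of 6 h. The 24 h estimate was 1.34 ± 0.14, or 2.52-fold, with adjusted p = 0.00521, and that of 6 h was 0.14 ± 0.14 (adjusted p = 0.978).

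S100a11, calgizzarin, binds annexin A1 and takes part in membrane repair. The probe read 0.18 and -0.07 at 6 h and 1.53 and 1.07 at 24 h. Values of 6 h lay on both sides of 0, and those of 24 h lay above 1. At 24 h it was 2.46-fold higher in PMCAO (log2 1.30 ± 0.14, adjusted p = 0.00472), and the probe of the S100a11-like gene gave a log2 mean of 1.21.

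S100a10 differs from its relatives in that its loops no longer bind calcium, and it holds annexin A2, plasminogen and tissue plasminogen activator at the cell surface. The log2 ratio was 0.20 and 0.15 at 6 h and 0.77 and 0.55 at 24 h. These were small values on all 4 arrays, with those of 24 h above those of 6 h. The 24 h estimate of 0.66 ± 0.09, or 1.58-fold, passed with adjusted p = 0.0124, and the 6 h estimate of 0.18 ± 0.09 did not (adjusted p = 0.745).

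S100a13 assists the release of FGF1 and interleukin 1 alpha, proteins that leave the cell without a signal peptide. Log2 ratios were -0.03 and 0.01 at 6 h and 0.35 and 0.41 at 24 h, a small shift that both arrays of 24 h showed. The 24 h estimate was 0.38 ± 0.08, or 1.30-fold, with adjusted p = 0.0391. This call is the weakest of the 7: it was lost with the scanner software's processed signals (adjusted p = 0.0932), with either 6 h array left out or each time fitted alone (adjusted p = 0.133 in both cases), and without sample 2 of 24 h (adjusted p = 0.0524).

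S100a16 is a widely expressed member with a single working calcium site in each subunit. Its log2 ratio was -0.10 and 0.25 at 6 h and 0.10 and 1.21 at 24 h. The arrays of 24 h disagreed, with a gap between sample 1 and sample 2 of -1.10, against a median absolute gap of 0.20 over all genes at that time. The sign of the gap was the same at 6 h, where it was -0.35. The 24 h estimate was 0.65 ± 0.26 (adjusted p = 0.169), with a 95% interval from 0.01 to 1.30. Left with sample 2 alone at 24 h, the value was 1.21, and with sample 1 alone it was 0.10. A lone array gives no spread at its time, and its dye effect does not cancel.

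S100a1 is best known from heart and skeletal muscle, where it binds the ryanodine receptor and SERCA, and it is also present in neurons. The log2 ratio was 0.07 and -0.07 at 6 h and -0.01 and 0.28 at 24 h. The arrays of each time lay on both sides of 0. The 24 h estimate was 0.14 ± 0.10 (adjusted p = 0.457), and its 95% interval ran from 0.919-fold to 1.31-fold.

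S100b, the astrocyte member, is widely measured in blood as a marker of brain injury. Its arrays read -0.01 and 0.01 at 6 h and -0.01 and 0.22 at 24 h. Sample 2 of 24 h alone stood away from 0. The estimates were 0.00 ± 0.09 at 6 h and 0.11 ± 0.09 at 24 h (adjusted p = 0.511). The 95% interval at 24 h ran from 0.918-fold to 1.27-fold.

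**Figure D2:**
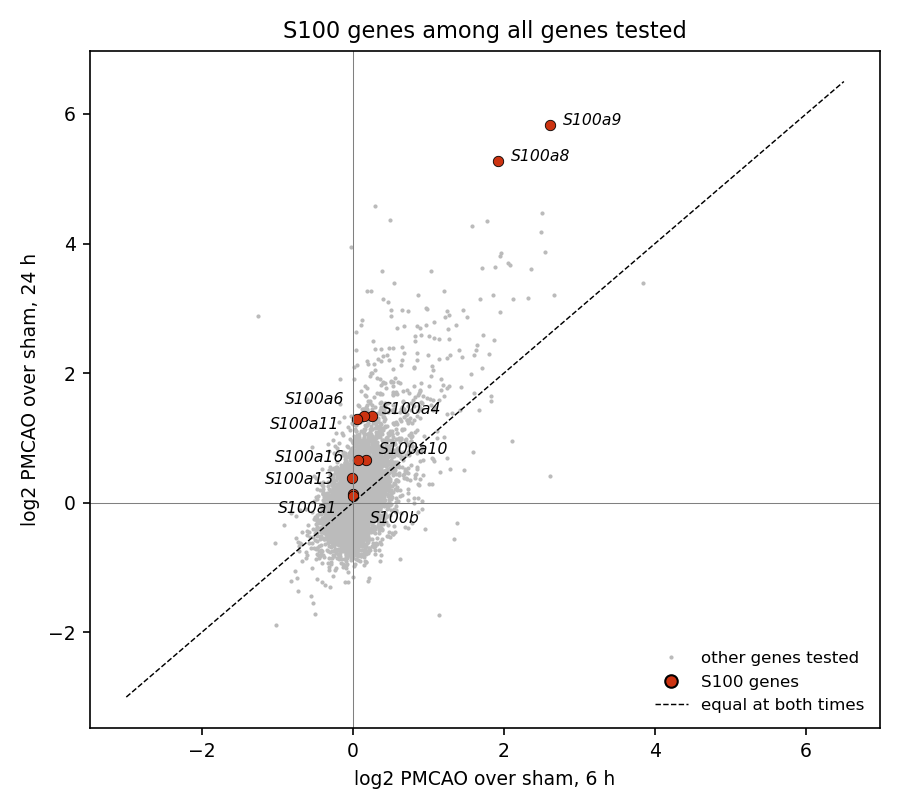
Log2 ratio of PMCAO over sham at 24 h (vertical axis) against 6 h (horizontal axis) for all 19134 genes tested (grey) and the 10 S100 genes (red), with a dashed line where both times are equal. S100a9 (2.61 and 5.84) and S100a8 (1.92 and 5.27) are the highest points of the plot, and S100a4, S100a6 and S100a11 lie close together, at 0.05 to 0.25 at 6 h and 1.30 to 1.34 at 24 h.

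The change of the ratio between the times was tested in the same model. It was larger at 24 h for 3 of the 10 genes, S100a8, S100a9 and S100a4, and smaller for none. The background over all genes was 1.3% larger and 0.298% smaller. The ratio grew by 3.35 ± 0.14 on the log2 scale for S100a8, or 10.2-fold, with adjusted p = 0.00276. For S100a9 it grew by 3.22 ± 0.14, or 9.34-fold, with the same adjusted p. The 95% intervals of the 2 genes overlap, at 3.01 to 3.69 and 2.88 to 3.57. For S100a4 the ratio grew by 1.09 ± 0.12 (adjusted p = 0.0223), a call that was lost in 3 of 12 alternatives: without sample 2 of 6 h (adjusted p = 0.0856), with the processed signals (adjusted p = 0.067) and with median centring (adjusted p = 1). S100a11 (1.25 ± 0.19, adjusted p = 0.0517) and S100a6 (1.19 ± 0.20, adjusted p = 0.0658) had estimates as large as that of S100a4 with a wider error and did not pass. Over 12 alternatives the estimate ran from 1.02 to 1.47 for S100a11 and from 0.94 to 1.44 for S100a6. With the sample number, which stands for the dye orientation, as a block, 8 members passed, all but S100a1 and S100b. Over all genes, that block called 1697 genes larger at 24 h, against 248 in the main fit.

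The levels of each arm were read from the separate channels, which shows which arm moved between 6 h and 24 h. In the PMCAO arm 5 of the 10 genes were higher at 24 h than at 6 h, namely S100a4, S100a6, S100a8, S100a9 and S100a11, and none was lower. Over all genes, 12.7% were higher and 8.53% lower in that comparison. In the sham arm 1 of the 10, S100a8, was lower at 24 h than at 6 h and none was higher, against 1.67% lower and 2.6% higher over all genes. All 10 sham estimates were below 0, with a median of -0.18 against 0.01 over all genes. Over 9 alternatives the highest sham estimate was above 0 for S100a1 (0.08), S100a4 (0.03) and S100a16 (0.18).

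S100a9 had a log2 signal of 10.78 and 10.72 in sham at 6 h, 9.81 and 10.29 in sham at 24 h, 13.28 and 13.45 in PMCAO at 6 h, and 15.72 and 16.05 in PMCAO at 24 h. The 4 groups did not overlap, and sham at 24 h was the lowest. Between the times the PMCAO signal rose by 2.52 ± 0.20 (5.75-fold, adjusted p = 0.000174), and the sham estimate was -0.70 ± 0.20 (adjusted p = 0.0924).

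S100a8 had a log2 signal of 8.47 and 8.03 in sham at 6 h, 7.28 and 6.92 in sham at 24 h, 10.26 and 10.08 in PMCAO at 6 h, and 12.55 and 12.19 in PMCAO at 24 h. The order of the groups was that of S100a9, again without overlap. The PMCAO signal rose by 2.20 ± 0.23 (4.60-fold, adjusted p = 0.000573), while the sham signal was 2.22-fold lower at 24 h (log2 -1.15 ± 0.23, adjusted p = 0.0349). The growth of the ratio between the times thus held a higher PMCAO signal and a lower sham signal. The sham call was lost without sample 1 of 6 h (-0.93, adjusted p = 0.199), without sample 2 of 6 h (-1.37, adjusted p = 0.061), without normalisation between arrays (-0.99, adjusted p = 0.669) and with the sample number as a block (-1.15, adjusted p = 0.0707), and was kept in 5 of 9 alternatives. Over the same 9 alternatives the sham estimate ran from -1.37 to -0.87 for S100a8 and from -0.94 to -0.46 for S100a9.

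S100a4 had a log2 signal of 10.97 to 11.19 on the 4 sham readings, 11.43 and 11.37 in PMCAO at 6 h, and 12.29 and 12.37 in PMCAO at 24 h. PMCAO at 24 h was the only group above 12. The signal rose by 0.93 ± 0.07 between the times in PMCAO (1.91-fold, adjusted p = 0.000157), and the sham estimate was -0.16 ± 0.07 (adjusted p = 0.243). S100a6 showed the same order, from 11.82 to 12.20 in sham, 12.20 and 12.35 in PMCAO at 6 h, and 13.18 and 13.40 in PMCAO at 24 h. Its 6 h readings touched those of sham, and the rise in PMCAO between the times was 1.01 ± 0.11 (2.02-fold, adjusted p = 0.000599). S100a11 rose by 1.07 ± 0.14 in PMCAO (2.10-fold, adjusted p = 0.00185), from 8.83 and 8.77 at 6 h to 10.09 and 9.65 at 24 h.

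The remaining 5 genes did not pass between the times in either arm. S100a10 read 12.94 and 12.97 in PMCAO at 6 h and 13.23 and 13.22 at 24 h, an estimate of 0.27 ± 0.09 (adjusted p = 0.0643), beside -0.21 ± 0.09 in sham (adjusted p = 0.212). For S100a13 the 2 arms also pointed in opposite directions, with 0.18 ± 0.07 in PMCAO (adjusted p = 0.110) and -0.21 ± 0.07 in sham (adjusted p = 0.131). S100b stayed between 15.69 and 15.92 on all 8 readings, with sham estimates of -0.16 ± 0.08 (adjusted p = 0.318) and PMCAO estimates of -0.05 ± 0.08 (adjusted p = 0.734). S100a1 lay between 11.95 and 12.23, and S100a16 between 10.83 and 12.03, its lowest and highest readings both coming from sample 2 of 24 h.

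**Figure D3:**
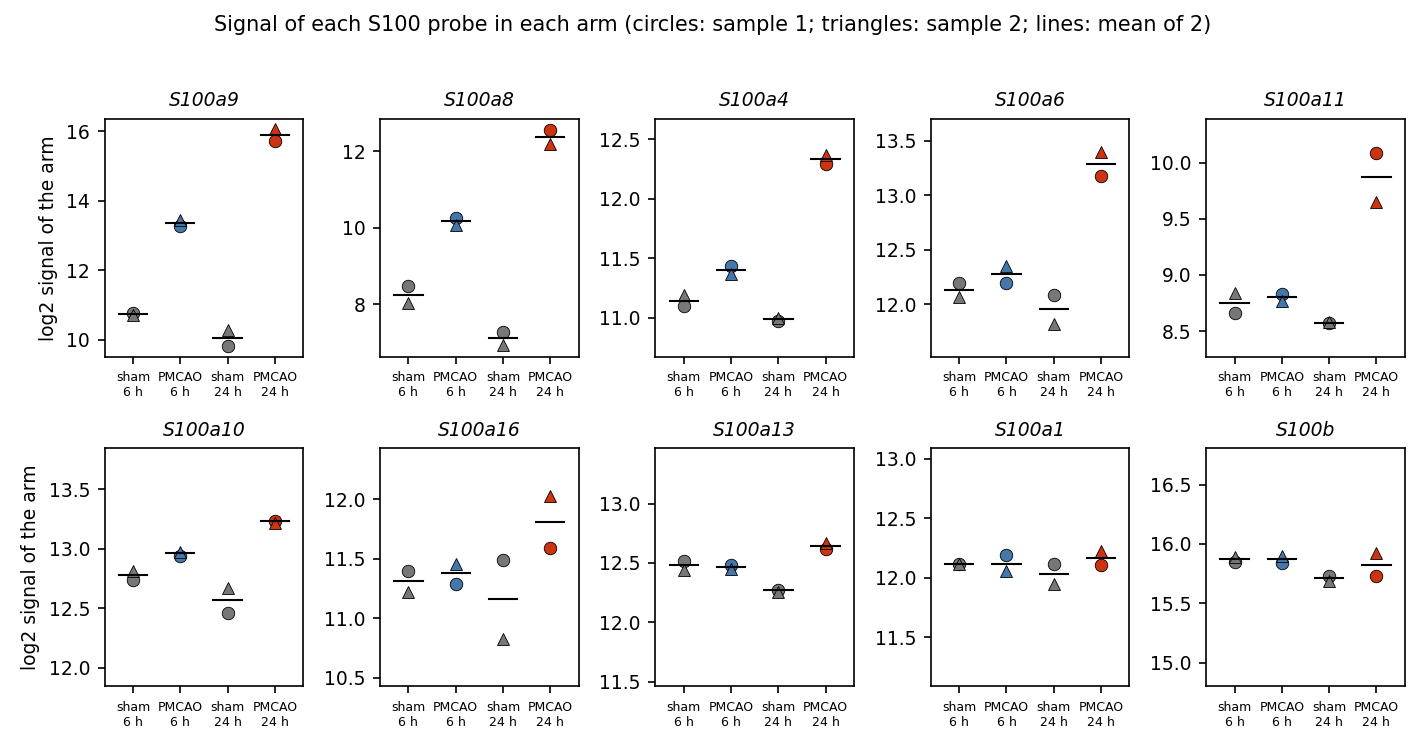
Log2 signal of each S100 probe (vertical axis, own scale in each panel) in the 4 RNA groups (horizontal axis), with circles for sample 1, triangles for sample 2 and lines at the mean of 2. By its mean, PMCAO at 24 h is the highest group for every gene but S100b, though all readings of S100a1 lie between 11.95 and 12.23.

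Other S100 genes gave a further reading of the family. Of 16 listed genes, 13 were on the array and 5 were tested. Of these 5, 1 was higher at 6 h and 2 at 24 h, with none lower, against 0.815% and 7.84% higher over all genes. S100a5, a member known from olfactory neurons, had a log2 ratio of 3.05 and 2.89 at 24 h, an estimate of 2.97 ± 0.18 (adjusted p = 0.000829). At 6 h its sham signal was not well above background on either array, so that only a bound can be given: it was at least 2.75-fold higher in PMCAO (adjusted p = 0.0405). S100a3 was higher at 24 h (0.71 ± 0.09, adjusted p = 0.00752). S100a14, named after its value was seen, was not well above background on either sham array of 24 h; it was at least 1.14-fold higher in PMCAO and did not pass (adjusted p = 0.244). Tchh, trichohyalin of hair follicles, whose protein holds an S100 domain, was 0.16 ± 0.09 at 24 h (adjusted p = 0.321). The remaining gene, S100pbp, encodes an S100P-binding protein and no S100 protein, and its 24 h estimate was -0.18 ± 0.08 (adjusted p = 0.206).

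The order of the genes along chromosome 3 was taken from the RefSeq table. From one end of the cluster to the other the tested genes were S100a1, S100a13, S100a14, S100a16, S100a3, S100a4, S100a5, S100a6, S100a8 and S100a9. The 24 h estimates were 0.14 for S100a1, 0.38 for S100a13 and 0.65 for S100a16. For S100a14, which lies between S100a13 and S100a16, only the bound of at least 1.14-fold can be given. Next came 0.71 for S100a3, 1.34 for S100a4, 2.97 for S100a5 and 1.34 for S100a6. At the other end S100a8 and S100a9 had 5.27 and 5.84, so the values did not rise at every step. Beyond S100a1, the neighbouring genes Ints3, Ilf2, Snapin and Chtop, which encode no S100 protein, had 24 h estimates from -0.07 to 0.12, and 0 of these 4 passed at either time in limma (0 also at an unadjusted p under 0.05). These were all the neighbours tested, from 14 listed within 100 kb of the cluster or next to S100a10, of which 5 were on the array. No listed gene beyond S100a9 was tested, so that side of the cluster was not read.

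**Figure D4:**
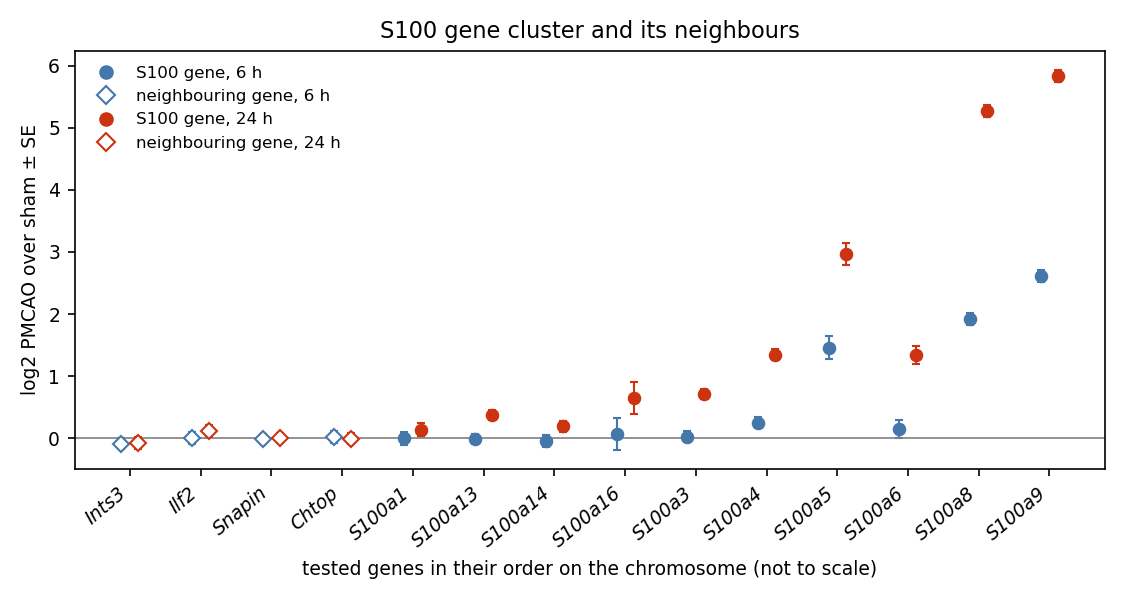
Log2 ratio of PMCAO over sham ± SE (vertical axis) at 6 h (blue) and 24 h (red) for the tested genes of the S100 cluster (filled circles) and their neighbours (open diamonds), in their order on the chromosome and not to scale; those of S100a14, and of S100a5 at 6 h, are fitted values against a sham signal not well above background. The 4 neighbours lie near 0 at both times, and the highest values are those of S100a8 and S100a9 at the far end.

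The receptors of extracellular S100 proteins were read from a list of 10 genes, of which 9 were tested. At 6 h 1 was higher, at 24 h 2 were higher, and none was lower at either time. The share called higher over all genes was 0.815% at 6 h and 7.84% at 24 h. Cd14, which hands ligands to TLR4, was higher at 6 h (log2 2.55 ± 0.14, adjusted p = 0.00501) and at 24 h (3.88 ± 0.14, adjusted p = 0.000201). Tlr4, a receptor for the S100A8/S100A9 dimer, was higher at 24 h (0.53 ± 0.11, adjusted p = 0.0320), with -0.05 ± 0.11 at 6 h. Its co-receptor Ly96 read 0.43 ± 0.12 at 24 h and did not pass (adjusted p = 0.0784), nor did Cd33 (0.32 ± 0.08, adjusted p = 0.0605) or Cd36 (0.30 ± 0.10, adjusted p = 0.119). Nptn, encoding neuroplastin, read -0.32 ± 0.19 (adjusted p = 0.346), Bsg, encoding basigin, 0.18 ± 0.45, and Alcam -0.22 ± 0.15. Ager, which encodes RAGE, did not pass the filter on dim probes and was not tested. The median over the 9 genes was 0.02 at 6 h and 0.31 at 24 h.

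Of 29 genes for proteins that bind S100 proteins, 27 were tested. At 6 h 1 was higher, Plat, and at 24 h 8 were higher and 1 was lower. Over all genes 0.815% were higher at 6 h, and 7.84% were higher and 4.52% lower at 24 h. The median over the 27 was 0.02 at both times. Some partners of S100a10 were among those that rose, but not all. Of its other listed partners, Grm5 fell (below), Kcnk3 read 0.00 ± 0.27 at 24 h and Htr1b was not tested. Anxa2, annexin A2, was 1.87 ± 0.12 at 24 h (adjusted p = 0.000959), with 0.50 ± 0.12 at 6 h (adjusted p = 0.230). Plat, tissue plasminogen activator, was 0.85 ± 0.09 at 6 h (adjusted p = 0.0207) and 1.33 ± 0.09 at 24 h (adjusted p = 0.000945). Ahnak, a large scaffold held by the annexin A2 complex, was 0.69 ± 0.08 at 24 h (adjusted p = 0.00778), and Plgrkt, a plasminogen receptor, was -0.06 at 24 h.

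Anxa1, the annexin bound by S100A11, was 1.28 ± 0.09 at 24 h (adjusted p = 0.00137). Myh9, the heavy chain of non-muscle myosin bound by S100A4, was 0.62 ± 0.13 (adjusted p = 0.0398), while Myh10, its paralog, was -0.23 at 24 h and did not pass. Iqgap1, a scaffold of the cytoskeleton, was 0.62 ± 0.09 (adjusted p = 0.0150), and Tgm2, transglutaminase 2, was 1.40 ± 0.09 (adjusted p = 0.000964). Il1a, whose product is released with S100A13, passed at 24 h (adjusted p = 0.0356) and was at least 1.32-fold higher, since its sham signal was not well above background on either array. Fgf1, the other cargo of S100A13, was 0.16 at 24 h and did not pass. Grm5, the metabotropic glutamate receptor 5 and a partner of S100A10, was the one that fell, by 0.50 ± 0.08 on the log2 scale (adjusted p = 0.0172). The partners of S100A1, Ryr2 and Atp2a2, were -0.16 and -0.34 at 24 h, and neither passed.

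**Figure D5:**
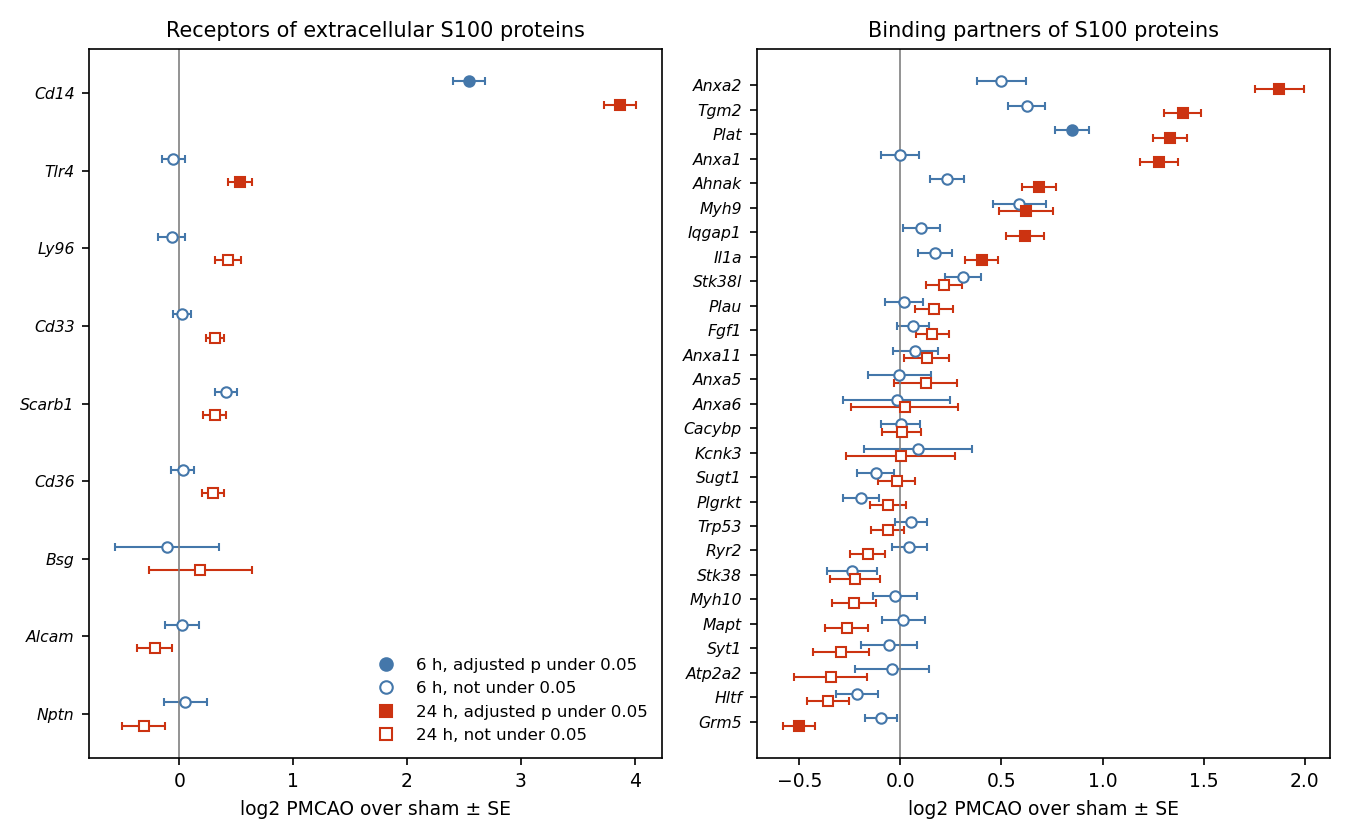
Log2 ratio of PMCAO over sham ± SE (horizontal axis) at 6 h (blue circles) and 24 h (red squares) for 9 receptor genes (left) and 27 partner genes (right), ordered by the 24 h estimate, with filled symbols where the adjusted p is under 0.05; the 24 h value of Il1a is fitted against a sham signal not well above background. Cd14 stands apart among the receptors (3.88 at 24 h), and Anxa2, Tgm2, Plat and Anxa1 lie above 1.2 among the partners.

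Other calcium-binding genes with EF hands served as a comparison for the fold they share with the S100 proteins. Of 40 tested, 0 passed in limma at 6 h (1 at an unadjusted p under 0.05), where the smallest adjusted p was 0.553 for Hpcal4. At 24 h 2 were higher and 2 lower, with a median of 0.02. Over all genes tested 7.84% were higher and 4.52% lower at 24 h, so these counts lie near the background. Calu, encoding calumenin, was higher (0.63 ± 0.09, adjusted p = 0.0128), as was Efhd2, a gene of immune cells and neurons (0.83 ± 0.13, adjusted p = 0.0159). Calb1, calbindin of neurons, fell by 0.69 ± 0.09 on the log2 scale (adjusted p = 0.0091). The other gene that fell, Rcn1 of the secretory pathway, is named after its value was seen and was -0.55 ± 0.11 (adjusted p = 0.0344).

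The genes whose ratios lay nearest to a member over the 4 arrays were found by Euclidean distance. Clone, accession and predicted-gene names were left out of the search. For S100a8 the nearest was S100a9, at 1.26, followed by Retnlg, a neutrophil gene, at 1.39 and the chemokine Ccl4 at 1.53. For S100a9 the nearest were S100a8, Ccl4 at 2.06 and the chemokine Ccl2 at 2.36. For S100a4 they were Cp, the copper oxidase ceruloplasmin, at 0.15, Tagln2 at 0.19 and Ifitm7 at 0.19. For S100a6 they were Mvp, the major vault protein, at 0.23, Itga5, an integrin that binds fibronectin, at 0.24 and Ltb4r1, a leukotriene receptor, at 0.27. For S100b they were Pccb, Ilf2 and Phactr2, all within 0.03 and none past the test at 24 h. These distances cover 4 arrays and describe likeness of values only.

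Markers of cell types were read beside these results, because in bulk tissue more cells of a type and more RNA per cell cannot be told apart. The shares to set beside the counts of each list are those over all genes. These were 0.815% higher and 0.0366% lower at 6 h, and 7.84% higher and 4.52% lower at 24 h. All 10 neuron, 12 astrocyte and 10 oligodendrocyte markers were well above background in every group. Of 16 neutrophil markers tested, 1 was higher at 6 h and 13 at 24 h, with none lower. Of these 16, 7 passed the filter on dim probes through PMCAO groups only, which favours a higher value, and of the other 9, 1 was higher at 6 h and 6 at 24 h. Over all 16, those 7 included, the summed linear signal was 2300 to 2760 on the 4 sham readings. It was 3430 to 3680 in PMCAO at 6 h and 8460 to 9600 in PMCAO at 24 h, a sum that the 7 also favour. Unlike those of S100a8 and S100a9, the sham readings of the 2 times overlapped. Retnlg was 1.78 ± 0.20 at 6 h (adjusted p = 0.0263) and 4.35 ± 0.20 at 24 h (adjusted p = 0.000303), and Clec4d, detected above background in sham on 1 of 2 arrays, was 3.58 ± 0.14 at 24 h (adjusted p = 0.000222). Of the 16, 7 were not well above background on either sham array of 6 h, 6 on those of 24 h, 2 in PMCAO at 6 h and 0 in PMCAO at 24 h. Mmp8, for one, was at least 7.35-fold higher in PMCAO at 24 h. Neutrophil Elane, Camp, Ly6g, Stfa1 and Cebpe were not tested.

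Of 11 monocyte and macrophage markers, 0 passed in limma at 6 h (2 at an unadjusted p under 0.05) and 7 were higher at 24 h, with a summed signal of 7940 to 9510 in sham, 8520 to 8890 in PMCAO at 6 h and 18900 in PMCAO at 24 h. Chil3 was 4.37 ± 0.13 at 24 h (adjusted p = 0.000179) and Arg1, detected above background in sham on 1 of 2 arrays, 2.13 ± 0.11 (adjusted p = 0.000454). Of the 11, 2 (F10 and Arg1) passed the filter through PMCAO groups only, and 5 of the other 9 were higher at 24 h. Over all 11, F10 and Arg1 included, the summed signal in PMCAO at 24 h lay above that of every other group. In PMCAO at 6 h it lay within the range of sham at 24 h. The part of neutrophil, monocyte and macrophage RNA in the S100 results was not tested.

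Markers of resident cells were read in the same way, beside the same shares over all genes. Of 12 astrocyte markers, 3 were higher at 24 h (Aldh1l1 0.54 ± 0.09, Gjb6 0.41 ± 0.08 and Sox9 0.56 ± 0.13), and their summed signal was 276000 to 319000 in sham and 274000 to 317000 in PMCAO at 24 h, beside the level readings of S100b. Of 10 microglia markers, 6 were lower at 24 h, among them P2ry12 (-1.72 ± 0.17). Of 8 endothelial markers, 3 were higher (Cdh5, Pecam1 and Esam) and 1 lower (Slco1a4, a value seen before it was named) at 24 h, with a summed signal of 24900 to 28900 in sham and 32600 to 37700 in PMCAO. Of 11 markers of fibroblasts, meninges and mural cells, 2 were higher and 1 lower, with Dcn at 1.13 ± 0.08, and sums of 35800 to 36000 in sham and 45700 to 48000 in PMCAO. Of 4 red blood cell markers, 0 passed in limma at 6 h (3 higher at an unadjusted p under 0.05) and 1 was higher at 24 h (3 unadjusted), Hba-a1 at 0.52 ± 0.08. Their summed signal was 54100 to 55900 in sham and 74100 to 79700 in PMCAO at 6 h, and 66000 to 69400 in sham and 87100 to 95600 in PMCAO at 24 h, without overlap of the arms at either time. Of 10 neuron markers 0 passed in limma at either time (0 at 6 h and 1 at 24 h at an unadjusted p under 0.05), and Nefm had the smallest adjusted p, 0.158 at 24 h. Of 10 oligodendrocyte markers 1 was lower, Ugt8a at -1.22 ± 0.08, and of 6 markers of ependyma and choroid plexus 1 was lower, Tmem212 at -0.40 ± 0.08. Of 3 lymphocyte markers 0 passed in limma, and 0 at an unadjusted p under 0.05. Their part in the S100 results was not tested either.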

How the data were processed

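Per the file headers, the authors deposited for each array a scanner table of spot intensity values, with a log10 ratio that sets red over green. The software was Agilent Feature Extraction 9.5.3.1, per the submitters' processing notes, and probe coordinates are in build mm7. The deposited series table held the linear ratio of the processed signals in size (100% of probes within 0.011). Its column medians were -0.96, 0.96, -0.91 and 0.95 for samples 1 and 2 of 6 h and of 24 h. Of its values, 100% were negative on sample 1 of each time and 0% on sample 2. The sign thus follows the dye orientation of the array and not the direction of a gene. Whether the table was centred is unknown, and no result uses it.

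Background was corrected by normexp (offset 50) and each array normalised by loess (limma 3.58.1, R 4.3.3), with control spots at weight 0. Spots flagged as outliers (112 to 142 an array) were dropped, while 0 to 2 saturated spots an array stayed in. The labelled dyes turned every ratio to PMCAO over sham. A gene was represented by its brightest probe and tested if any of the 4 RNA groups had that probe well above background on each of its 2 arrays. RefSeq names of GRCm38.p6 were matched to 22951 of 41174 probes through the accession, to 6659 through the symbol and to 3109 through an older one; the other 8455 kept the name in the file.

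Both times were fitted together in limma, with a coefficient each and their difference tested (2 residual and 3.53 prior degrees of freedom); errors are SE with n = 2 arrays per time. Arms were compared between times on 19126 genes by the separate-channel model after Aquantile normalisation (intraspot correlation -0.411). P-values were adjusted by Benjamini-Hochberg over all genes tested, at 0.05. For a probe not well above background in 1 arm, the fold is a bound: the dim arm is set to the higher of its own signal and the lowest signal detected on that array. The number of arrays limits the precision. The fits were tested on simulated data with independent noise on each array and no dye effect. Those data lack the gap that arrays of the same dye orientation share here.

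Across genes, the 2 arrays of a time correlated at 0.582 (6 h) and 0.671 (24 h), the arrays of 1 dye orientation at 0.612 and 0.628 between the times, and those of opposite orientation at 0.319 and 0.382. Dye effects cancel in a time's mean and remain in its error.

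The members, gene lists, marker lists and tests were chosen with earlier results of these data known. All 10 members are named. A list is given by its counts and at most the 3 genes of smallest p at a time (any tested receptor or partner). For 5 members the 3 nearest genes are named, with clone, accession and predicted-gene names left out. Alternatives were other background corrections, normalisations, filters and probe rules, the sample number as a block, each time alone and each array left out. Plots used matplotlib 3.10.9 under Python 3.11.15.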

Additional observations from a re-analysis of the deposited data

Results flagged for a closer look

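The log2 ratio of PMCAO over sham differed between 24 h and 6 h by the test of the difference itself for 3 of the 10 S100 genes. The 24 h minus 6 h difference was 1.09 for S100a4, 3.35 for S100a8 and 3.22 for S100a9. On the separate channels, the PMCAO signal of S100a4 grew by 0.93 and its sham estimate was -0.16. For S100a8 the same values were 2.20 and -1.15, and for S100a9 they were 2.52 and -0.70. With 2 arrays per time, no array could be tested as standing apart from its group.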

How the results depend on the processing

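Over all alternatives run, 43 counts of members called stayed within 1.5 times the reported count and 13 did not. With median centring in place of loess the members higher numbered 0 at 6 h (2 at an unadjusted limma p under 0.05), 2 at 24 h and 0 for the difference between the times (2 unadjusted); it put the median difference over all genes at -0.10, and the cause was not tested. Without normalisation between arrays 0 members were lower in sham (2 unadjusted) and 3 were higher in PMCAO at 24 h over 6 h; the cause was not tested. With each array left out, the lone array of that time was assumed to vary like the others, and its dye effect does not cancel. The counts of members called in those fits are therefore not given singly. Of the single values of members, 514 kept their call, 24 lost it and 22 gained it, and no called value changed sign. Each member has 1 probe, above background in every group, so the filters and probe rules could not change its ratio. For the ratio at a time, that time fitted alone and either array of the other time left out are the same fit. Both tallies thus hold fixed and repeated outcomes. Over all genes, calls higher ran from 0 (median centring) to 1141 (replicate block) at 6 h against 156, and from 13 to 3922 at 24 h against 1500, under the same alternatives. For the difference between the times they ran from 0 to 1697 against 248, again under median centring and the replicate block.

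The sample number is shared by both times and stands for the dye orientation, so it does not pair mice. The gap between sample 1 and sample 2 correlated at 0.718 between the times over 19126 genes. With the sample number as a replicate block, 2 members were higher at 6 h, 8 at 24 h (S100a16 added, adjusted p = 0.000983), 8 for the difference, 0 lower in sham (1 at an unadjusted limma p under 0.05) and 4 higher in PMCAO between the times. Every member's probe was well above background in each group, so the number of arrays limits these values.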
